A study of Rattus norvegicus with 60 samples.

Results

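This account follows 27 genes of cholesterol synthesis and of the SREBP2 pathway in rat liver, taken by gene symbol from the 32883 genes of the deposited count table. They comprise 19 enzymes of the route from acetyl-CoA to cholesterol, 4 genes of the SREBP2 control system and 4 genes that move sterols within or into cells. Livers came from 60 male Sprague-Dawley rats, each sequenced as 1 library and treated as 1 replicate. PFOA (perfluorooctanoic acid), a perfluorinated surfactant, was given by daily oral gavage in water at 1, 5 or 15 mg/kg for 7, 14 or 28 days, and vehicle rats received water alone. Each of the 12 combinations of dose and day, vehicle included, held 5 rats. All rats were of the same sex and strain, housed singly, with ages recorded as 7 to 8 weeks in the day 7 groups, 8 to 9 weeks on day 14 and 10 to 11 weeks on day 28, against 5 to 6 weeks in the general study design. Length of exposure and age therefore cannot be told apart, although each dose was compared with vehicle rats of its own day.

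The liver makes much of the body's cholesterol. The enzymes of the route are transcribed together under SREBP2, a membrane-bound transcription factor encoded by Srebf2. When sterols in the endoplasmic reticulum are scarce, the escort protein SCAP carries SREBP2 to the Golgi for cleavage, and when sterols are plentiful the INSIG proteins hold SCAP back. Insig1 is itself transcribed under SREBP, whereas Insig2 is the form known for its high level in liver.

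The libraries held between 7965497 and 24770119 counts each (median 12606152). Levels are in CPM, counts scaled to a common library size by the TMM method, and because no transcript lengths were used they are compared between groups and not between genes. Of the 27 genes, 26 passed the filter on low counts that left 12167 genes in all. The exception was Npc1l1, an intestinal sterol transporter that held 2 reads in total and was at 0 in 58 of 60 libraries. A gene is said to fall or rise where edgeR's quasi-likelihood test gave a p under 0.05 after Benjamini-Hochberg adjustment across the 12167 genes. Values after ± are standard errors (SE) for log2 fold changes and standard deviations (SD, n = 5) for levels. Bulk liver RNA cannot tell fewer cells of a type from less RNA per cell.

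A subset of these genes fell under PFOA, in numbers that differed by dose and day. After 7 days none of the 26 tested genes fell at 1 mg/kg, 8 fell at 5 mg/kg and 10 fell at 15 mg/kg. After 14 days 12 fell at 1 mg/kg, 12 at 5 mg/kg and 9 at 15 mg/kg, and after 28 days the counts were 3, 4 and 5. Over all 9 comparisons 13 of the 26 genes fell at least once. Idi1 fell in 8 of the 9, Insig1 and Stard4 in 7, and Acat2, Cyp51 and Insig2 in 6. How many of all genes fell that often over the 9 was not counted, so these totals stand without a background.

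Except at 1 mg/kg on day 7, the counts of the single comparisons are a larger share of the 26 genes than the share of all genes that fell in the same comparison. On day 7 that share was 0.0247% at 1 mg/kg, 2.87% at 5 mg/kg and 7.21% at 15 mg/kg. For day 14 it was 2.95%, 5.27% and 10.2% at the rising doses, and for day 28 it was 1.38%, 4.85% and 8.31%. The median log2 fold change of the 26 genes was -0.08, -0.51 and -0.35 at the 3 doses on day 7, -0.71, -0.74 and -0.55 on day 14 and -0.59, -0.31 and -0.24 on day 28. Over all genes tested the median lay between -0.03 and 0.04 in each of the 9 comparisons. The 26 genes were chosen with earlier results of these data known, so these contrasts with all genes are a description and not a test. The 0 falling genes at 1 mg/kg on day 7 were 0 by DESeq2 as well, with 1 gene (Stard4) at an unadjusted p under 0.05 by edgeR.

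None of the 26 genes rose in any of the 9 comparisons by edgeR or by DESeq2. At an unadjusted p under 0.05, edgeR put 1 gene (Hmgcs1) higher at each dose on day 28 and 0 genes higher on days 7 and 14. At 15 mg/kg the share of all genes that rose was 6.77% on day 7, 12.7% on day 14 and 8.89% on day 28.

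Some of these counts rest on single libraries. The 8 genes at 5 mg/kg on day 7 became 4 without library 4 of that group. The 12 genes at 1 mg/kg on day 14 became 6 without vehicle library 3 or 4 of that day and 7 without treated library 3. The 3 genes at 1 mg/kg on day 28 became 1 without vehicle library 2 or 5 or without treated library 1 or 3. Library numbers from 1 to 5 only name the rats of a group, following the sample records.

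**Figure D1:**
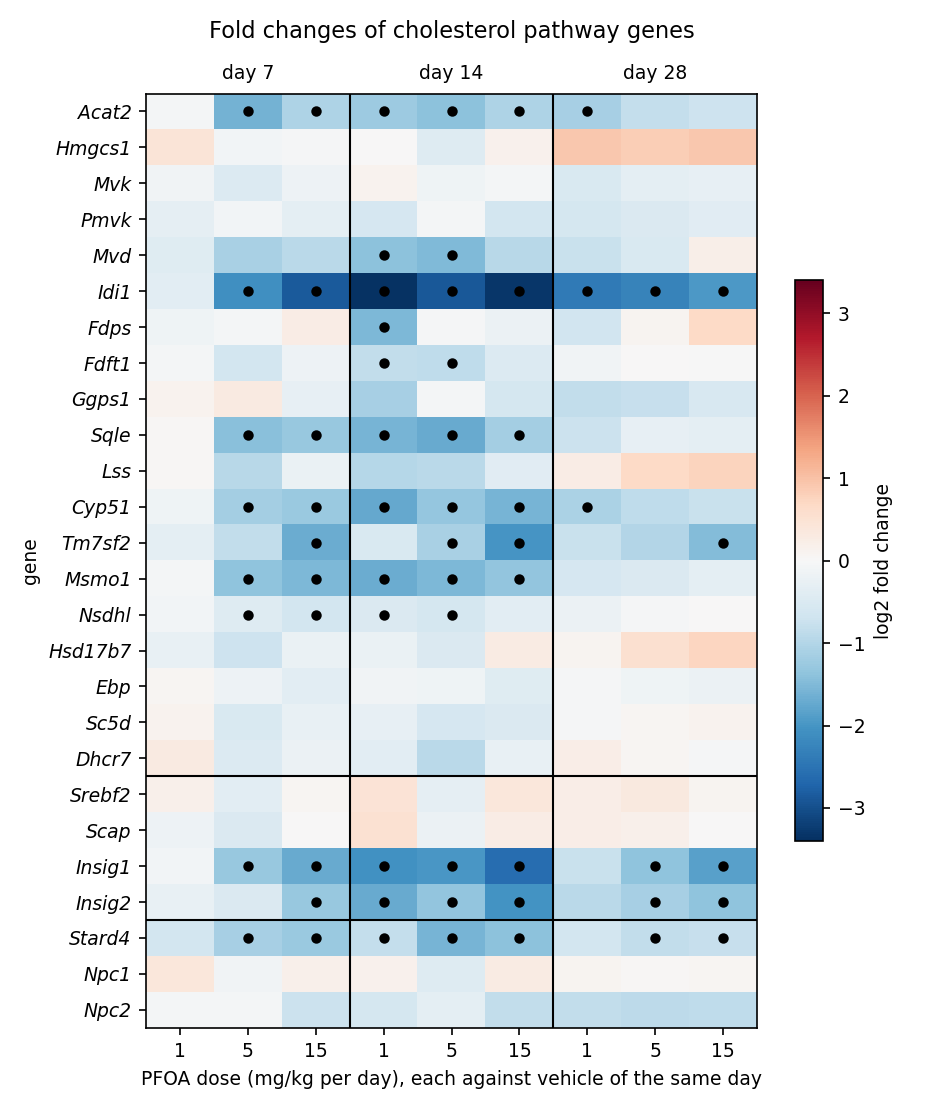
Log2 fold changes of the 26 tested genes (rows) at 1, 5 and 15 mg/kg PFOA against vehicle of the same day (columns, 5 livers per group), blue for lower and red for higher, with horizontal lines between the 19 enzymes, the 4 SREBP2 control genes and the sterol movement genes. Black dots mark an adjusted p under 0.05 by edgeR, and Idi1 carries a dot in 8 of the 9 columns whereas Srebf2 and Scap carry none.

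The summed level of the 19 synthesis enzymes was followed over time in vehicle livers, without a test. Vehicle livers held 1761, 1913, 2116, 2336 and 2792 summed CPM on day 7 and 1805, 2006, 2220.5, 2322 and 2418 on day 14. By day 28 the vehicle livers held 1093, 1238, 1521, 1546 and 2076. The day 28 vehicle mean of 1495 ± 377 was 68.5% of the day 7 mean of 2183 ± 403, and the ranges of these 2 groups overlapped.

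At 15 mg/kg the summed level was 1605 ± 192 on day 7, 1496 ± 240 on day 14 and 1651 ± 274.99 on day 28. These means were 73.5%, 69.4% and 110.5% of vehicle of the same day, but 73.5%, 68.5% and 75.6% of the day 7 vehicle mean. For days 14 and 28 the latter sets rats of different ages side by side. At 5 mg/kg the means were 1544 ± 190, 1349 ± 86.8 and 1534 ± 336 on days 7, 14 and 28, or 70.7%, 62.6% and 103% of vehicle of the same day. Summed levels at 1 mg/kg stood at 2262 ± 629 on day 7, which was 104% of vehicle, then at 1354 ± 235 (62.8%) and 1451 ± 109 (97.1%). On day 14 all 15 treated livers lay below the lowest vehicle liver. On day 28 every treated group overlapped vehicle. The sum weights the most counted enzymes most, and as a mean of log2(CPM + 0.5) over the enzymes the groups above 100% stood below vehicle, by -0.13 at 1 mg/kg on day 7 and by -0.24 and -0.16 at 5 and 15 mg/kg on day 28.

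**Figure D2:**
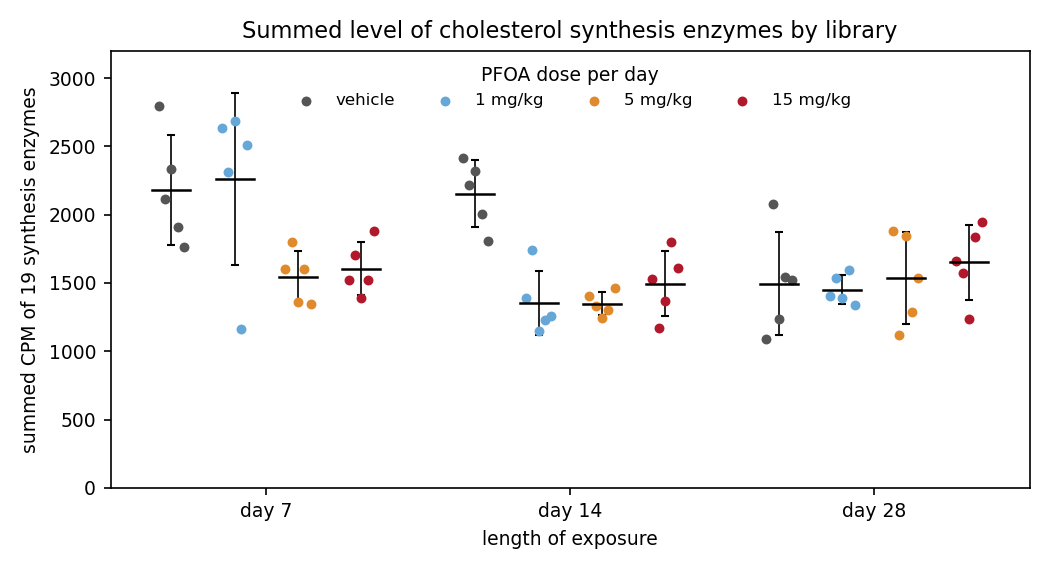
Summed CPM of the 19 synthesis enzymes in each of the 60 livers (points), with group mean (line) and SD (whiskers), by day and dose. On day 14 the livers of all 3 doses sit below 1805, the lowest vehicle liver, and by day 28 the vehicle livers themselves spread from 1093 to 2076.

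The promoters of 4 of these genes are shown as examples. Idi1, Insig1 and Msmo1 each fell at all 3 doses on day 14, and Srebf2 encodes the shared regulator and was not called. Acat2, Cyp51, Insig2, Sqle and Stard4 also fell at all 3 doses on day 14, and their promoters are not shown. RefSeq promoter sequence was matched by symbol for 23 of the 27 genes, and Fdft1, Sqle, Pmvk and Stard4 were not matched. Each line gives the 250 bases before the transcript start, 5′ to 3′ on the strand of the gene, in build GRCr8, which is not the build the reads were aligned to. The windows are chr17:66547525-66547774 on the minus strand for Idi1, chr4:8057770-8058019 on the minus strand for Insig1, chr16:29746863-29747112 on the plus strand for Msmo1 and chr7:115543057-115543306 on the plus strand for Srebf2. Capitals mark CCAAT (the box bound by NF-Y), TCACNCCA (the core of a sterol regulatory element) and GGGCGG (the GC box bound by Sp1), each searched on both strands with no overlap between the marked sites.
Idi1: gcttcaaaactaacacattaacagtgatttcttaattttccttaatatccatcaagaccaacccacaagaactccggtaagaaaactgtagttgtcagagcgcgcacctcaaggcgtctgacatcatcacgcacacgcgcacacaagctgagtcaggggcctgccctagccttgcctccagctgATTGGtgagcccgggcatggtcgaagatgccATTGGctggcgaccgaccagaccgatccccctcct
Insig1: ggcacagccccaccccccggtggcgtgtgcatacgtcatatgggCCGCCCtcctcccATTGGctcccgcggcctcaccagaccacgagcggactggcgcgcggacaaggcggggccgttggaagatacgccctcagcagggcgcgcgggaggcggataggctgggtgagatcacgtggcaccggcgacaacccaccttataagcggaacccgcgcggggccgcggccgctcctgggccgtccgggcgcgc
Msmo1: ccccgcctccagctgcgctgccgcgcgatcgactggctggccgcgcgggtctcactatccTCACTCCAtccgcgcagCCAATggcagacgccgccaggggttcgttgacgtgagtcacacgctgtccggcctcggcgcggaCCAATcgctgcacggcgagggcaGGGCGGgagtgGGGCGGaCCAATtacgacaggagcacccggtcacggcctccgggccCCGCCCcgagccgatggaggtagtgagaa
Srebf2: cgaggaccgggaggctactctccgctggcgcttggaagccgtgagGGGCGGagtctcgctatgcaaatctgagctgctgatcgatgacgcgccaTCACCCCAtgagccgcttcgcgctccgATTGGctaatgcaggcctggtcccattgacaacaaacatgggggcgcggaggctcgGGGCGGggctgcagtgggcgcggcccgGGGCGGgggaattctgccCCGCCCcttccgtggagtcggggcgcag

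CCAAT stood in the window of 18 of the 23 genes (78.3%) and in 34.0% of the 33469 promoters of the table. GGGCGG likewise stood in 18 of the 23 (78.3%), against 30.5% of all promoters. TCACNCCA was found in 2 of the 23 (8.70%), which were Msmo1 and Srebf2, and in 3.24% of all promoters. Idi1 held 2 CCAAT boxes and no GC box, and Insig1 held 1 of each. Of the genes not shown that fell at all 3 doses on day 14, Acat2 and Cyp51 held no CCAAT box and Insig2 held 1. Msmo1 held 3 of each beside its sterol element core, and Srebf2 held 1 CCAAT box and 4 GC boxes beside its own. These matches describe letters in a window and do not show that a factor binds there.

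The early enzymes build mevalonate and the isoprenoids. Acat2 (ENSRNOG00000019189), which joins acetyl-CoA units at the start of the route, was low throughout but fell in 6 of the 9 comparisons. On day 7 it stood at 4.60, 4.83, 4.96, 8.25 and 9.09 CPM in vehicle, 2.57, 3.50, 7.22, 8.03 and 8.76 at 1 mg/kg, 1.18, 1.602, 2.07, 2.29 and 3.03 at 5 mg/kg and 1.69, 2.62, 2.78, 3.16 and 5.05 at 15 mg/kg. On day 14 Acat2 stood at 4.05, 4.95, 7.41, 7.68 and 8.02 CPM in vehicle, 1.70, 2.51, 2.75, 3.11 and 3.38 at 1 mg/kg, 1.71, 2.03, 2.42, 2.65 and 3.33 at 5 mg/kg and 2.07, 2.74, 2.74, 2.87 and 5.07 at 15 mg/kg. By day 28 it read 2.13, 3.13, 3.30, 3.94 and 9.20 CPM in vehicle, 1.48, 1.57, 1.85, 2.501 and 2.501 at 1 mg/kg, 1.68, 2.119, 2.59, 2.73 and 3.10 at 5 mg/kg and 1.28, 2.35, 2.41, 3.12 and 4.002 at 15 mg/kg. Livers at 5 mg/kg lay wholly below vehicle on days 7 and 14, as did those at 1 mg/kg on day 14, while 1 vehicle liver of day 28 stood far above the other 4. The log2 fold change was -1.61 ± 0.34 at 5 mg/kg (adjusted p = 0.00107) and -1.04 ± 0.33 at 15 mg/kg on day 7 (adjusted p = 0.0245). On day 14 it was -1.25 ± 0.33 at 1 mg/kg, -1.40 ± 0.34 at 5 mg/kg and -1.06 ± 0.33 at 15 mg/kg. On day 28 Acat2 passed only at 1 mg/kg (-1.12 ± 0.33, adjusted p = 0.0465). Leaving out 1 library ended that call in 6 of 10 cases (adjusted p up to 0.261, without vehicle library 2) and the 15 mg/kg call of day 7 in 5 of 10 (up to 0.0853). The day 14 calls were lost at 1 mg/kg without vehicle library 3 or 4 (up to 0.0579) and at 15 mg/kg without treated library 5 (adjusted p = 0.0526).

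Idi1 (ENSRNOG00000016690), the isomerase that readies isopentenyl diphosphate for chain building, had the largest fall of the 26 genes. In vehicle livers its level was 51.5, 74.6, 174, 203 and 255.5 CPM on day 7, 66.3, 140.4, 195, 233 and 255.96 on day 14 and 14.8, 33.9, 39.1, 93.6 and 153 on day 28. At 1 mg/kg it was 40.3, 57.7, 75.7, 147 and 268.4 CPM on day 7, 11.96, 13.6, 14.8, 22.8 and 23.2 on day 14 and 7.11, 7.84, 11.1, 11.6 and 25.4 on day 28. The 1 mg/kg livers thus overlapped vehicle on day 7 and lay wholly below it on day 14. At 5 mg/kg it was 20.8, 26.7, 38.6, 43.3 and 50.6 CPM on day 7, 8.91, 19.5, 26.5, 32.6 and 33.6 on day 14 and 9.16, 12.9, 14.9, 16.0 and 16.8 on day 28. At 15 mg/kg it was 14.5, 15.7, 22.0, 22.53 and 29.1 CPM on day 7, 12.4, 12.8, 13.9, 18.9 and 32.5 on day 14 and 5.65, 13.7, 14.7, 21.7 and 31.4 on day 28. All livers of these 2 doses lay below vehicle on days 7 and 14, and on day 28 each treated group overlapped the single lowest vehicle liver at 14.8 CPM. At 1 mg/kg the log2 fold change was -0.36 ± 0.48 on day 7 (adjusted p = 1), -3.37 ± 0.52 on day 14 (adjusted p = 4.03e-05) and -2.41 ± 0.50 on day 28 (adjusted p = 0.0024). At 15 mg/kg it was -2.87 ± 0.51, -3.30 ± 0.52 and -1.95 ± 0.50 on the 3 days, with adjusted p = 5.09e-05, 3.95e-06 and 0.00332. The 5 mg/kg group was lower by -2.07, -2.88 and -2.26 on the same scale.

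The other early enzymes passed less often. Mvd, which decarboxylates mevalonate diphosphate, fell on day 14 at 1 mg/kg (-1.40 ± 0.45, adjusted p = 0.0481) and at 5 mg/kg (-1.51 ± 0.46, adjusted p = 0.0241), from a vehicle mean of 3.08 ± 1.102 CPM. These calls were lost in 9 and 5 of 10 cases when 1 library was left out (adjusted p up to 0.121 and 0.0985). Fdps, the farnesyl diphosphate synthase, fell in 1 comparison only, at 1 mg/kg on day 14, from 227 ± 68.4 to 78.3 ± 21.3 CPM (-1.53 ± 0.41, adjusted p = 0.0206), and lost that call without vehicle library 3 or 4 or treated library 1 or 3 (up to 0.0723). In other groups of day 14 Fdps stood at 222 ± 112 CPM at 5 mg/kg and 196 ± 121 CPM at 15 mg/kg, overlapping vehicle. Fdft1, the squalene synthase, fell on day 14 at 1 mg/kg (-0.83 ± 0.26, adjusted p = 0.0411) and at 5 mg/kg (-0.86 ± 0.26, adjusted p = 0.0194), with all livers of both groups below vehicle. Leaving out 1 library ended the Fdft1 call in 9 of 10 cases at 1 mg/kg (up to 0.113) and, at 5 mg/kg, without vehicle library 1 or treated library 5 (up to 0.0692). The other 4 early enzymes passed in none of the 9 comparisons. Hmgcs1, the cytosolic HMG-CoA synthase, ranged from -0.44 to 0.92 on the log2 scale, the kinase Mvk from -0.52 to 0.11 and the kinase Pmvk from -0.64 to -0.07. Ggps1, which makes geranylgeranyl diphosphate for protein prenylation, ranged from -1.13 to 0.32, and at 1 mg/kg on day 14 its livers lay below vehicle without passing (adjusted p = 0.102).

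Hmgcs1 was the gene highest against vehicle on day 28, where vehicle livers held 108, 235, 249.4, 283.1 and 365 CPM and 15 mg/kg livers 245, 365, 471, 591 and 668. The difference of 0.92 ± 0.37 did not pass (adjusted p = 0.0805) and the groups overlapped. Vehicle Hmgcs1 had averaged 429 ± 154 CPM on day 7 and 375 ± 149 on day 14, against 248.1 ± 93.0 on day 28.

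The sterol-forming enzymes close the ring and trim it to cholesterol. Sqle (ENSRNOG00000009550), the squalene epoxidase and a rate-limiting step, fell on days 7 and 14. On day 7 Sqle stood at 18.9, 22.0, 29.4, 34.6 and 41.5 CPM in vehicle, 6.95, 33.3, 33.9, 34.9 and 39.9 at 1 mg/kg, 7.27, 8.46, 8.81, 10.4 and 19.8 at 5 mg/kg and 8.59, 8.62, 9.70, 13.8 and 19.6 at 15 mg/kg. On day 14 Sqle stood at 18.52, 19.6, 20.7, 30.3 and 33.5 CPM in vehicle, 4.45, 6.18, 6.85, 6.88 and 16.8 at 1 mg/kg, 6.39, 7.09, 7.37, 8.07 and 8.22 at 5 mg/kg and 6.48, 9.95, 10.9, 12.8 and 14.4 at 15 mg/kg. By day 28 Sqle stood at 3.73, 6.05, 14.7, 15.0 and 19.4 CPM in vehicle, 3.44, 3.83, 6.86, 8.11 and 13.4 at 1 mg/kg, 4.97, 7.60, 8.19, 12.1 and 15.3 at 5 mg/kg and 6.61, 6.86, 7.28, 10.7 and 15.4 at 15 mg/kg. All day 14 treated livers lay below vehicle, while on day 7 1 liver at each of the higher doses reached into the vehicle range, and on day 28 all groups overlapped. The log2 fold change was -1.41 ± 0.40 at 5 mg/kg (adjusted p = 0.0193) and -1.28 ± 0.39 at 15 mg/kg (adjusted p = 0.0204) on day 7. On day 14 it was -1.57 ± 0.40, -1.72 ± 0.40 and -1.17 ± 0.39 at the rising doses, with adjusted p = 0.0148, 0.0022 and 0.0248. On day 28 it was -0.73, -0.29 and -0.33, and none passed. The day 7 calls were lost in 6 of 10 cases at 5 mg/kg and 4 of 10 at 15 mg/kg when 1 library was left out (adjusted p up to 0.0761 and 0.0617). On day 14 the 1 mg/kg call was lost without vehicle or treated library 3 (up to 0.0532) and the 15 mg/kg call without vehicle library 1 or 3 or treated library 2 (up to 0.0748).

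Cyp51 (ENSRNOG00000007234), the lanosterol demethylase, fell at 5 and 15 mg/kg on day 7, at all doses on day 14 and at 1 mg/kg on day 28. On day 7 Cyp51 stood at 138, 159, 215, 251.5 and 257.4 CPM in vehicle, 80.4, 141, 163, 261.6 and 280.6 at 1 mg/kg, 59.8, 85.6, 91.4, 93.5 and 125 at 5 mg/kg and 52.8, 66.5, 81.2, 87.6 and 136 at 15 mg/kg. On day 14 Cyp51 stood at 141, 198, 227, 244 and 255.2 CPM in vehicle, 48.1, 48.8, 59.7, 81.6 and 82.3 at 1 mg/kg, 50.5, 79.3, 89.3, 102 and 105 at 5 mg/kg and 49.7, 63.4, 67.0, 86.1 and 87.5 at 15 mg/kg. The called groups of these 2 days lay wholly below vehicle. By day 28 Cyp51 stood at 68.9, 82.0, 102, 144 and 197 CPM in vehicle, 34.9, 42.7, 60.2, 67.7 and 77.4 at 1 mg/kg, 37.0, 62.4, 67.7, 69.5 and 93.0 at 5 mg/kg and 33.7, 54.6, 68.8, 95.4 and 102 at 15 mg/kg. Every day 28 group overlapped vehicle. The log2 fold change at 15 mg/kg was -1.27 ± 0.31 on day 7 (adjusted p = 0.00261), -1.59 ± 0.31 on day 14 (adjusted p = 0.000125) and -0.75 ± 0.30 on day 28 (adjusted p = 0.0837). At 1 mg/kg it was -1.73 ± 0.31 on day 14 (adjusted p = 0.000294) and -1.07 ± 0.31 on day 28 (adjusted p = 0.0361), and at 5 mg/kg it was -1.16 ± 0.31 and -1.32 ± 0.31 on days 7 and 14. That day 28 call at 1 mg/kg did not hold with a library score as covariate (adjusted p = 0.0584), with no filter (adjusted p = 0.0684) or with only the compared libraries (adjusted p = 0.0723), and was lost in 5 of 10 cases when 1 library was left out (up to 0.167). The 5 mg/kg call of day 7 was lost without treated library 4 (adjusted p = 0.0525). At 5 mg/kg on day 28 Cyp51 passed by DESeq2 (adjusted p = 0.0398) and not by edgeR.

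Tm7sf2 (ENSRNOG00000020989), a sterol reductase that acts after Cyp51, passed at 15 mg/kg on all 3 days. On day 7 Tm7sf2 stood at 34.7, 39.3, 61.0, 80.9 and 135 CPM in vehicle, 44.2, 45.9, 57.1, 60.1 and 71.0 at 1 mg/kg, 25.8, 30.2, 43.2, 47.1 and 48.2 at 5 mg/kg and 11.0, 18.2, 18.7, 22.99 and 37.9 at 15 mg/kg. On day 14 Tm7sf2 stood at 36.0, 52.0, 70.5, 78.8 and 85.2 CPM in vehicle, 22.6, 26.7, 36.8, 41.2 and 99.1 at 1 mg/kg, 13.5, 22.4, 35.7, 36.4 and 42.8 at 5 mg/kg and 10.7, 13.9, 16.5, 18.54 and 21.1 at 15 mg/kg. By day 28 Tm7sf2 stood at 45.0, 49.9, 63.5, 71.1 and 76.0 CPM in vehicle, 18.6, 24.8, 33.2, 51.0 and 54.2 at 1 mg/kg, 12.8, 22.9, 32.8, 33.2 and 51.2 at 5 mg/kg and 13.6, 19.3, 20.9, 27.4 and 29.2 at 15 mg/kg. The 15 mg/kg livers lay wholly below vehicle on days 14 and 28 and overlapped it on day 7, and the 1 mg/kg livers overlapped on every day. For 15 mg/kg the log2 fold change was -1.69 ± 0.37, -1.998 ± 0.38 and -1.47 ± 0.37 on the 3 days, with adjusted p = 0.000861, 7.47e-05 and 0.00288. At 5 mg/kg it was -1.10 ± 0.37 on day 14 (adjusted p = 0.0421), which did not pass with DESeq2's size factors (adjusted p = 0.0584) and was lost in 6 of 10 cases when 1 library was left out (up to 0.124). For 1 mg/kg it was -0.33, -0.51 and -0.75, and none passed. At 5 mg/kg on day 28 Tm7sf2 did not pass by edgeR. It passed there by DESeq2 (adjusted p = 0.0448) and by edgeR with the library score as covariate (adjusted p = 0.0382). Its vehicle mean was 70.1 ± 40.5 CPM on day 7 and 61.1 ± 13.4 on day 28.

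Msmo1 (ENSRNOG00000032297), the methylsterol monooxygenase that removes methyl groups from the sterol ring, fell on days 7 and 14 and not on day 28. In vehicle livers it stood at 61.7, 80.0, 90.5, 124 and 167 CPM on day 7, 69.9, 73.6, 76.5, 113 and 136 on day 14 and 21.6, 26.3, 43.4, 50.9 and 82.9 on day 28. The 1 mg/kg livers held 31.7, 87.5, 103, 137 and 141 CPM on day 7, 20.8, 22.4, 25.5, 31.0 and 47.1 on day 14 and 18.7, 22.9, 28.6, 35.1 and 45.4 on day 28. The vehicle livers of day 28 reached down to the levels of treated livers. At 5 mg/kg Msmo1 was at 33.2, 36.0, 36.4, 42.6 and 52.7 CPM on day 7, 26.4, 27.3, 35.2, 36.0 and 37.0 on day 14 and 20.3, 23.2, 31.0, 39.2 and 46.4 on day 28. Under 15 mg/kg Msmo1 was at 26.8, 31.5, 33.2, 34.4 and 56.9 CPM on day 7, 21.8, 31.9, 37.7, 45.8 and 48.4 on day 14 and 17.9, 30.7, 41.0, 41.3 and 48.9 on day 28. Livers at 5 and 15 mg/kg on day 7, and at all doses on day 14, lay below every vehicle liver of their day. On day 14 the log2 fold change was -1.67 ± 0.33, -1.54 ± 0.33 and -1.34 ± 0.33 at the rising doses, with adjusted p = 0.00131, 0.000888 and 0.0021. On day 7 it was -0.06 at 1 mg/kg (adjusted p = 1), -1.38 at 5 mg/kg (adjusted p = 0.00496) and -1.52 at 15 mg/kg (adjusted p = 0.000785). On day 28 it was -0.58, -0.49 and -0.32, with adjusted p from 0.263 to 0.541.

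**Figure D3:**
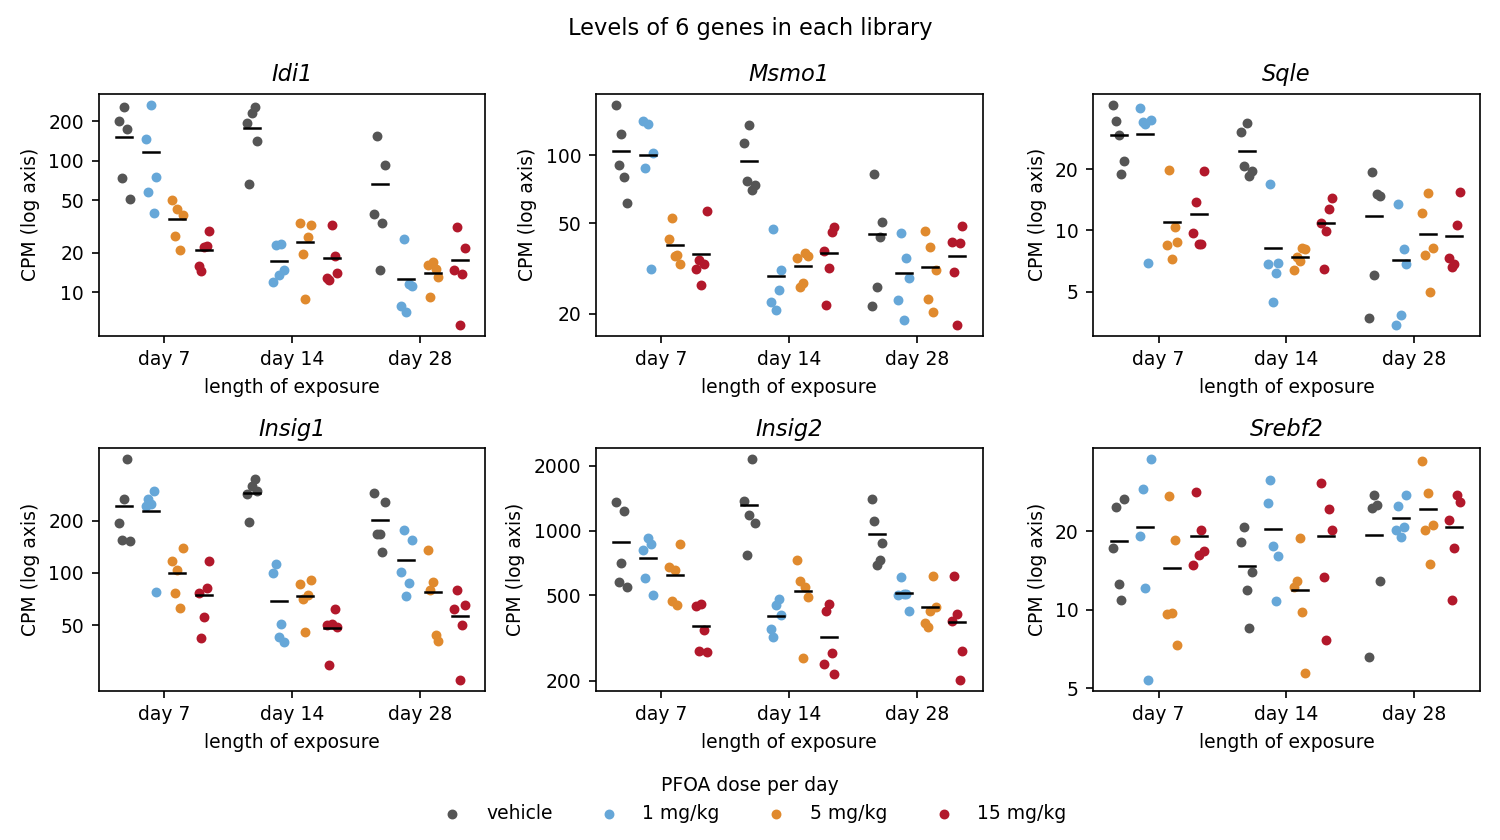
CPM (log axis) of Idi1, Msmo1, Sqle, Insig1, Insig2 and Srebf2 in each of the 60 livers (points) by day and dose, with the group mean as a line. For Idi1 on day 14 all treated livers sit at or below 33.6 against 66.3 or more in vehicle, whereas Srebf2 overlaps vehicle in every group.

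Nsdhl, the dehydrogenase that works with Msmo1, fell by a smaller amount. It went from 283.5 ± 24.7 CPM in vehicle to 211 ± 12.03 at 5 mg/kg (-0.43 ± 0.13, adjusted p = 0.0451) and 185 ± 22.1 at 15 mg/kg on day 7 (-0.62 ± 0.13, adjusted p = 0.000767). On day 14 it went from 288 ± 15.9 CPM to 204 ± 20.9 at 1 mg/kg (-0.50 ± 0.13, adjusted p = 0.0214) and 189 ± 20.1 at 5 mg/kg (-0.61 ± 0.13, adjusted p = 0.00116). In these 4 groups all livers lay below vehicle. With 15 mg/kg on day 14 the difference of -0.35 ± 0.13 did not pass by edgeR (adjusted p = 0.0535). It passed by DESeq2 (adjusted p = 0.0134) and by edgeR with the library score as covariate (adjusted p = 0.00268). The 5 mg/kg call of day 7 was lost whichever of the 10 libraries was left out (adjusted p up to 0.142), and the 1 mg/kg call of day 14 without vehicle library 3 or 4 (up to 0.0558).

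The other 5 late enzymes passed in none of the 9 comparisons by edgeR. Lss, the lanosterol synthase, ranged from -0.98 to 0.75 on the log2 scale and the ketoreductase Hsd17b7 from -0.71 to 0.72, both with their highest value at 15 mg/kg on day 28. The sterol isomerase Ebp ranged from -0.40 to 0.08, the desaturase Sc5d from -0.57 to 0.12, and Dhcr7, which reduces the last double bond of the ring, from -0.90 to 0.30. Ebp came closest to the threshold, with an adjusted p = 0.0508 at 15 mg/kg on day 14, where it passed by DESeq2 (adjusted p = 0.0412). With a library score as covariate all 5 fell at least once, and how many of all genes did so was not counted. On day 14 the share of all genes that fell with the score was 6.21%, 15.3% and 20.1% at the rising doses. With the score Lss fell at all 3 doses on day 14 (by -1.54, -0.81 and -0.76 on the log2 scale), as did Dhcr7 (by -0.93, -0.80 and -0.71).

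Among the 4 control genes, both Insig genes fell whereas Srebf2 and Scap did not pass at any dose or day. Srebf2 (ENSRNOG00000007400) ranged from 8.55 to 20.7 CPM in vehicle and from 7.65 to 30.5 CPM at 15 mg/kg on day 14, with medians of 14.0 and 20.1. On day 7 it ranged from 10.9 to 26.6 CPM in vehicle (median 17.3) and from 14.8 to 28.1 at 15 mg/kg (median 16.8), and on day 28 from 6.60 to 27.4 (median 24.5) and from 10.9 to 27.4 (median 22.1). Its log2 fold changes ran from -0.35 to 0.46, with a smallest adjusted p = 0.407. Every treated group overlapped vehicle of its day. For 15 mg/kg the difference was 0.06 ± 0.39 on day 7, 0.39 ± 0.39 on day 14 and 0.10 ± 0.39 on day 28. Scap (ENSRNOG00000020853) likewise ranged from 17.2 to 46.5 CPM in vehicle and from 24.0 to 39.6 at 15 mg/kg on day 7, from 14.4 to 36.0 and from 14.2 to 44.6 on day 14, and from 14.6 to 49.5 and from 21.4 to 39.2 on day 28. Its log2 fold changes ran from -0.49 to 0.51. With SE of 0.39 for Srebf2 and 0.31 for Scap, changes well above the size of these errors could have been missed. Srebf1, with an SE of 0.38, was higher by 1.01 at 1 mg/kg on day 14 and did not pass edgeR's test (adjusted p = 0.0848).

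Insig1 (ENSRNOG00000006859) had the smallest adjusted p of the enzymes and regulators after Insig2. In vehicle livers it stood at 152, 155, 195, 265.2 and 451 CPM on day 7, 196, 284.4, 297, 316.01 and 349.8 on day 14 and 132, 167, 168, 256.1 and 289 on day 28. Under 1 mg/kg it stood at 77.7, 243, 250.7, 265.6 and 297 CPM on day 7, 40.2, 42.8, 50.9, 99.9 and 112 on day 14 and 73.7, 87.3, 101, 156 and 178 on day 28. The 1 mg/kg livers lay wholly below vehicle on day 14 and overlapped it on days 7 and 28. For 5 mg/kg Insig1 stood at 62.7, 76.8, 104, 118 and 139.9 CPM on day 7, 45.7, 71.0, 74.5, 86.6 and 91.1 on day 14 and 40.5, 43.9, 80.1, 88.7 and 136 on day 28. Under 15 mg/kg Insig1 stood at 42.2, 55.9, 76.8, 81.5 and 118 CPM on day 7, 29.7, 48.9, 50.4, 50.6 and 62.3 on day 14 and 24.3, 50.2, 62.2, 65.4 and 79.4 on day 28. The 15 mg/kg livers lay wholly below vehicle on all 3 days. Their log2 fold change was -1.70 ± 0.36 on day 7 (adjusted p = 0.000503), -2.58 ± 0.37 on day 14 (adjusted p = 5.60e-07) and -1.85 ± 0.36 on day 28 (adjusted p = 0.000128). Under 5 mg/kg it was -1.28 ± 0.36, -1.97 ± 0.36 and -1.38 ± 0.36, and all 3 passed, but the day 7 call was lost without vehicle library 4 or treated library 2 or 4 (adjusted p up to 0.116). With 1 mg/kg it was -2.06 ± 0.36 on day 14 (adjusted p = 0.000229) and -0.76 ± 0.35 on day 28 (adjusted p = 0.188).

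Insig2 (ENSRNOG00000002478), the more highly counted of the pair, fell at 15 mg/kg on all days. In vehicle livers Insig2 stood at 546, 577, 707, 1228 and 1359 CPM on day 7, 774, 1085, 1185, 1372 and 2144 on day 14 and 689, 733, 878, 1109 and 1398 on day 28. For 1 mg/kg Insig2 stood at 503, 598, 815, 867 and 923 CPM on day 7, 321.1, 349, 405, 452 and 479 on day 14 and 422, 503, 508, 508 and 609.5 on day 28. The 1 mg/kg livers lay wholly below vehicle on days 14 and 28. With 5 mg/kg Insig2 stood at 451, 472, 654, 675 and 862 CPM on day 7, 254.3, 492, 547, 583 and 728 on day 14 and 354, 370.3, 422, 443 and 611 on day 28. With 15 mg/kg Insig2 stood at 273.1, 276.1, 343, 447 and 455 CPM on day 7, 216, 239, 269.1, 421 and 456 on day 14 and 202, 275.4, 379, 407 and 611 on day 28. All 15 livers of the highest dose lay below vehicle of their day. Their log2 fold change was -1.30 ± 0.28, -2.03 ± 0.29 and -1.36 ± 0.28 on the 3 days, with adjusted p = 0.000793, 4.82e-07 and 0.000345. For 5 mg/kg it was -0.50 ± 0.28 on day 7 (adjusted p = 0.353), -1.33 ± 0.28 on day 14 (adjusted p = 0.000764) and -1.13 ± 0.28 on day 28 (adjusted p = 0.0049). Under 1 mg/kg it was -1.71 ± 0.29 on day 14 (adjusted p = 0.000112) and -0.91 ± 0.28 on day 28, where it did not pass by edgeR (adjusted p = 0.0582) and passed by DESeq2 (adjusted p = 0.0282).

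Stard4 (ENSRNOG00000020468), a carrier of cholesterol between membranes and a known SREBP2 target, fell in 7 of the 9 comparisons. Vehicle livers held 27.9, 30.7, 31.4, 37.6 and 47.5 CPM on day 7, 17.8, 24.1, 31.3, 38.6 and 42.9 on day 14 and 17.3, 19.1, 20.2, 24.9 and 31.2 on day 28. Livers at 1 mg/kg held 14.7, 22.6, 23.5, 24.9 and 26.7 CPM on day 7, 13.1, 16.9, 17.1, 17.8 and 22.9 on day 14 and 10.8, 11.2, 12.3, 17.9 and 21.4 on day 28. Of all 26 genes Stard4 was the single one whose 1 mg/kg livers lay wholly below vehicle on day 7, where it did not pass. How many of all genes lay so was not counted. Livers at 5 mg/kg held 12.7, 13.0, 15.4, 16.6 and 21.9 CPM on day 7, 6.36, 10.0, 10.8, 11.2 and 13.4 on day 14 and 7.73, 12.3, 13.5, 14.2 and 14.7 on day 28. Livers at 15 mg/kg held 9.42, 11.7, 12.5, 16.5 and 23.2 CPM on day 7, 8.80, 9.97, 12.2, 12.3 and 15.7 on day 14 and 9.19, 10.8, 12.04, 13.8 and 19.1 on day 28. The 5 mg/kg livers lay wholly below vehicle on all days, and 1 liver at 15 mg/kg reached the vehicle range on day 28. Under 5 mg/kg the log2 fold change was -1.14 ± 0.24, -1.58 ± 0.25 and -0.85 ± 0.24 on the 3 days, with adjusted p = 0.00151, 7.44e-06 and 0.0151. For 15 mg/kg it was -1.26 ± 0.25, -1.39 ± 0.25 and -0.79 ± 0.24, and all 3 passed. With 1 mg/kg it was -0.64 ± 0.24 on day 7 (adjusted p = 0.574), -0.82 ± 0.24 on day 14 (adjusted p = 0.0338) and -0.62 ± 0.24 on day 28 (adjusted p = 0.143). On day 14 the 1 mg/kg call did not hold with no filter (adjusted p = 0.0753) and was lost in 6 of 10 cases when 1 library was left out (up to 0.106). On day 28 the 5 mg/kg call was lost without vehicle or treated library 2 (up to 0.0632) and the 15 mg/kg call without vehicle library 2 (adjusted p = 0.0685).

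Npc1 and Npc2, which together release cholesterol from lysosomes, passed in no comparison. Npc1 ranged from -0.45 to 0.38 on the log2 scale. Npc2 was negative in all 9 comparisons, from -0.88 to -0.06, with a smallest adjusted p = 0.0965 at 15 mg/kg on day 14. With the library score as covariate Npc2 fell in 6 of the 9, at 5 and 15 mg/kg on every day, for example by -0.66 at 15 mg/kg on day 7 (adjusted p = 2.96e-05) and by -0.57 on day 14 (adjusted p = 0.000222).

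The steps between doses were tested directly. From 1 to 5 mg/kg on day 7, 4 of the 26 genes were lower (2.38% of all genes were called in either direction). These were Acat2 (-1.54), Idi1 (-1.71), Msmo1 (-1.31) and Sqle (-1.44), with adjusted p = 0.00369, 0.0451, 0.017 and 0.032. The count became 1 without library 1 or 3 at 1 mg/kg or library 5 at 5 mg/kg, and 2 without library 1, 3 or 4 at 5 mg/kg. From 5 to 15 mg/kg on day 7 edgeR and DESeq2 each called 0 of the 26 genes, where edgeR called 0.329% of all genes. At an unadjusted p under 0.05 edgeR had 2 of the 26. How many of all genes reached that unadjusted p was not counted for any dose step.

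On day 14 the step from 1 to 5 mg/kg put Fdps higher (1.504 ± 0.41, adjusted p = 0.0162) and Stard4 lower (-0.76 ± 0.25, adjusted p = 0.0376), where 12.1% of all genes were called. With the library score neither call was present, and the 2 genes called were Tm7sf2 (-1.05, adjusted p = 0.0224) and Npc2 (-0.53, adjusted p = 0.00501), both lower. Without it, these 2 calls became 1 without library 1, 2, 3 or 5 at 1 mg/kg or library 2 or 4 at 5 mg/kg, 0 without library 5 at 5 mg/kg and 4 without library 3 at 5 mg/kg. From 5 to 15 mg/kg on day 14 both tools called 0 of the 26 genes, with 4 at an unadjusted p under 0.05 by edgeR, and 0% of all genes were called. On day 28 both tools called 0 of the 26 genes from 1 to 5 mg/kg (0.329% of all genes) and 0 from 5 to 15 mg/kg (0.0411% of all genes), with 0 at an unadjusted p under 0.05 by edgeR in both steps. For Idi1 the difference of 15 from 5 mg/kg was -0.79 ± 0.48 on day 7, -0.42 ± 0.48 on day 14 and 0.31 ± 0.48 on day 28. Such values do not show that the doses act alike.

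Changes of a dose effect between days were tested as interactions. The 1 mg/kg effect grew from day 7 to day 14 for Idi1 alone of the 26 genes, by -3.00 ± 0.69 (adjusted p = 0.0472), while 0.148% of all genes were called. DESeq2 called 5 genes there (Idi1, Cyp51, Msmo1, Insig1 and Insig2), and over all genes it called 50 lower and 60 higher. EdgeR gave 10 of the 26 an unadjusted p under 0.05, and how many of all genes reached that was not counted. The Idi1 call was lost without vehicle library 1, 2, 3 or 5 or 1 mg/kg library 1, 2 or 3 of day 7, without vehicle library 1, 3, 4 or 5 of day 14, or without any 1 mg/kg library of day 14. Without 1 mg/kg library 5 of day 7 the count became 3. The interaction was -1.96 ± 0.50 for Insig1 (adjusted p = 0.0836), -1.59 ± 0.43 for Cyp51 (adjusted p = 0.0857) and -1.46 ± 0.40 for Insig2 (adjusted p = 0.0857).

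The other 5 interactions called 0 of the 26 genes by edgeR and by DESeq2. The shares of all genes called below are at the adjusted p, and how many had an unadjusted p under 0.05 was not counted. From day 7 to day 28 at 1 mg/kg, 3 genes had an unadjusted p under 0.05 (0.0575% of all genes called). With 5 mg/kg it was 1 gene from day 7 to day 14 (0% of all genes called) and 3 from day 7 to day 28 (0.00822% called). Under 15 mg/kg it was 0 genes to day 14 (0% called) and 2 to day 28 (0% called). The smaller counts of day 28 are therefore not shown to be a weaker effect than those of day 7. For Msmo1 at 15 mg/kg the change from day 7 to day 28 was 1.19 ± 0.46 (adjusted p = 0.997), and for Sqle at 5 mg/kg it was 1.122 ± 0.55 (adjusted p = 0.469).

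The vehicle livers themselves were compared over time because they set the baseline. From day 7 to day 28, 19 of 26 genes were lower in vehicle, with a median log2 fold change of -0.31 against -0.01 over all genes. EdgeR and DESeq2 each called 0 of them, 7 had an unadjusted p under 0.05 by edgeR, and 0.0411% of all genes were called. The vehicle change was -1.31 ± 0.39 for Sqle (adjusted p = 0.427), -1.22 ± 0.33 for Msmo1 (adjusted p = 0.3) and -1.18 ± 0.48 for Idi1 (adjusted p = 0.837). Insig2 moved by 0.12 ± 0.28 and Tm7sf2 by -0.20 ± 0.36. From day 14 to day 28, 22 of 26 were lower (median -0.44 against 0.01 over all genes), with 0 called by either tool, 4 at an unadjusted p under 0.05 by edgeR and 0% of all genes called. From day 7 to day 14 the vehicle median was -0.05 against -0.04 over all genes, with 0 called by either tool, 1 at an unadjusted p under 0.05 by edgeR and 0% of all genes called. The shares called are at the adjusted p, and how many of all genes had an unadjusted p under 0.05 was not counted.

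Mean levels of day 7 and day 28 were set side by side. At 15 mg/kg Sqle averaged 12.05 ± 4.71 CPM on day 7 and 9.37 ± 3.76 on day 28, while vehicle went from 29.3 ± 9.21 to 11.8 ± 6.62. Msmo1 averaged 36.6 and 36.0 CPM at 15 mg/kg, while vehicle went from 105 to 45.0, with the single livers as given above. Insig1 averaged 74.8 ± 28.7 and 56.3 ± 20.7 CPM at 15 mg/kg, while vehicle went from 244 ± 125 to 202 ± 66.6. The smaller distance from vehicle on day 28 for Sqle and Msmo1 at 15 mg/kg thus came with a lower vehicle mean. Means at 1 mg/kg also went down between these days, from 29.8 to 7.13 CPM for Sqle, from 99.9 to 30.1 for Msmo1, from 227 to 119 for Insig1 and from 118 to 12.6 for Idi1. Idi1 went from 36.0 to 14.0 CPM at 5 mg/kg.

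**Figure D4:**
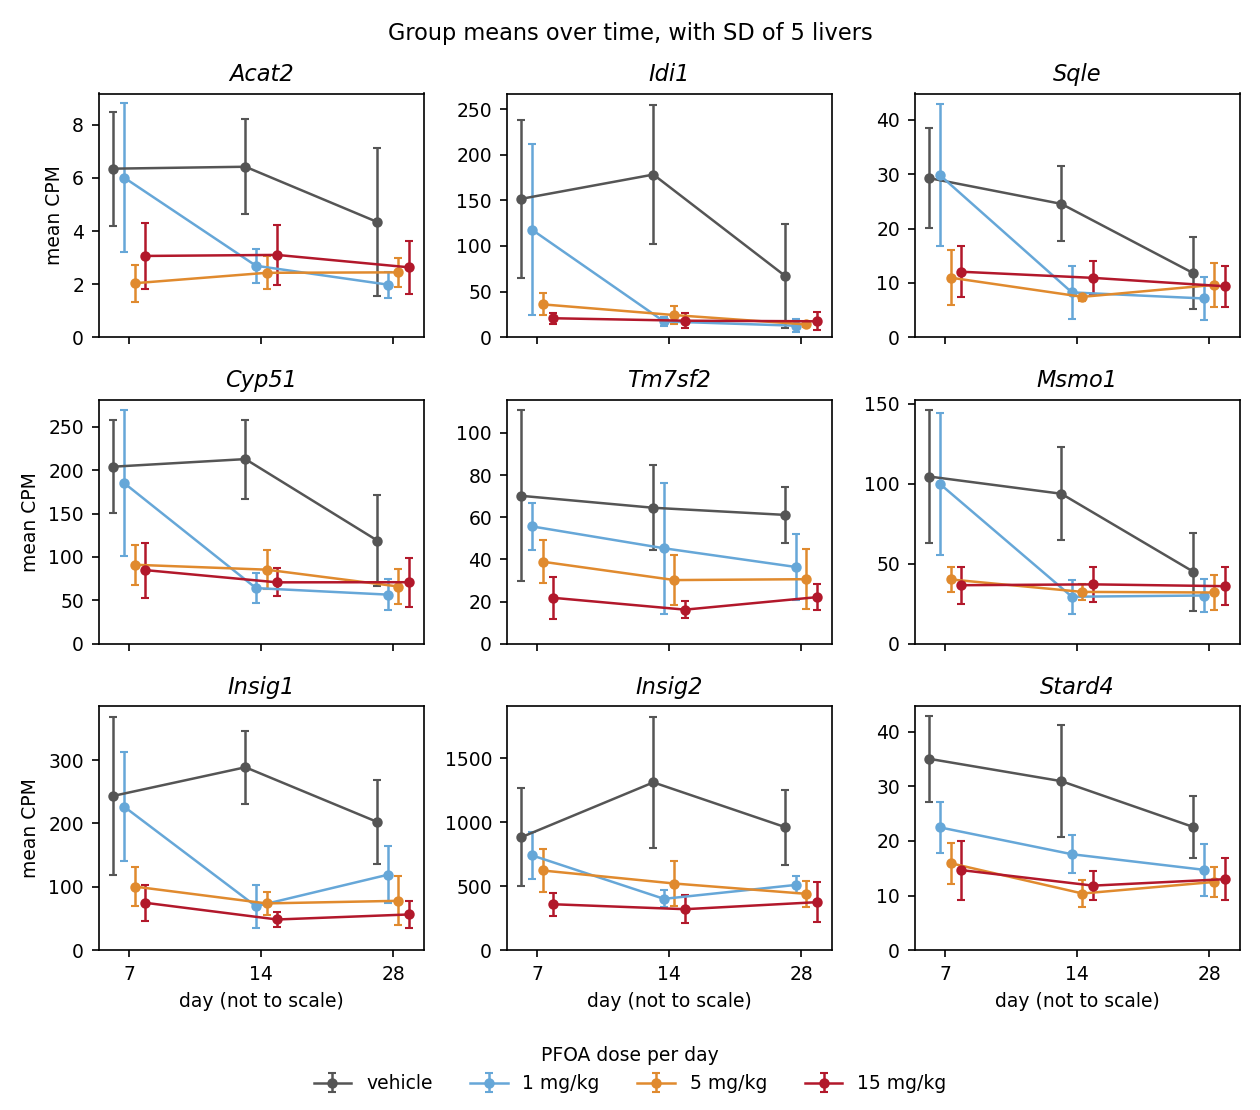
Mean CPM with SD (5 livers per point) of the 9 genes called at 15 mg/kg on at least 2 days, by day (not to scale) and dose. For Sqle the vehicle mean goes from 29.3 to 11.8 while the 15 mg/kg mean goes from 12.05 to 9.37, and for Tm7sf2 vehicle stays between 61.1 and 70.1.

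Genes next to the route were described from 5 lists. For comparison, 6.77%, 12.7% and 8.89% of all genes rose at 15 mg/kg on days 7, 14 and 28. At the same dose and days 7.21%, 10.2% and 8.31% fell. Among 12 tested genes of fatty acid synthesis under SREBP1, the sister factor of SREBP2, 5 rose and 1 fell at 15 mg/kg on day 7, 6 rose and 1 fell on day 14, and 8 rose and 0 fell on day 28. Srebf1 rose from 32.0 to 157 CPM on day 7 (2.29 ± 0.39, adjusted p = 2.41e-05), the desaturase Scd from 116 to 2147 CPM (4.21 ± 0.65, adjusted p = 3.99e-06) and the malic enzyme Me1 from 75.1 to 319.5 CPM (2.09 ± 0.30, adjusted p = 7.62e-07). For 1 mg/kg on day 14, where 12 of the 26 sterol genes fell, Scd rose by 1.87 ± 0.59 (adjusted p = 0.0427), while Srebf1 was higher by 1.01 ± 0.38 without passing (adjusted p = 0.0848) and Me1 by 0.13 ± 0.28 (adjusted p = 0.754). Of 11 genes of SREBP processing and sterol-stimulated degradation, Srebf1 among them, 1 rose and 0 fell at 15 mg/kg on day 7, with 2 at an unadjusted p under 0.05, while 2 rose and 1 fell on day 14 and 4 rose and 1 fell on day 28. The next by p on day 7, the protease Mbtps2 (0.36 ± 0.14, adjusted p = 0.0848) and the membrane protein Erlin2 (0.44 ± 0.23, adjusted p = 0.205), did not pass.

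In branches that use isoprenoids the counts are set beside the shares of all genes given above. Of 15 genes of the non-sterol isoprenoid branch, 3 rose and 1 fell at 15 mg/kg on day 7, 4 rose and 1 fell on day 14, and 3 rose and 1 fell on day 28. The 1 falling gene is not above the share of all genes that fell (7.21%, 10.2% and 8.31%). Dhdds, which makes the chain of dolichol, rose from 66.9 to 198 CPM (1.56 ± 0.23, adjusted p = 1.32e-06), and by 2.47 ± 0.23 on both day 14 and day 28. Under 1 mg/kg on day 14 Dhdds rose by 1.201 ± 0.23 (adjusted p = 0.000597). Pdss2, for the side chain of ubiquinone, rose by 0.43 ± 0.12 and Trit1, which attaches an isopentenyl group to transfer RNA, by 0.82 ± 0.26. Of 10 tested other sterol-pathway genes and SREBP2 targets, 1 rose and 1 fell at 15 mg/kg on day 7, 3 rose and 1 fell on day 14, and 1 rose and 1 fell on day 28. All of these but the 3 on day 14 are near the shares of all genes. Acat1, the mitochondrial thiolase, rose from 469 to 1814 CPM (1.95 ± 0.23, adjusted p = 1.90e-08), whereas Aacs, which activates acetoacetate in the cytosol, fell from 3.52 to 0.316 CPM (-3.46 ± 0.48, adjusted p = 5.55e-07). Srd5a3, a reductase of dolichol synthesis, was higher by 0.71 ± 0.26 without passing (adjusted p = 0.0523).

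Of 20 genes of sterol esterification, export, LXR and bile acid entry, 4 fell and 3 rose at 15 mg/kg on days 7 and 14, and 3 fell and 3 rose on day 28. Abcg5, a subunit of a canalicular sterol exporter, went from 99.2 to 7.90 CPM and Lcat, which esterifies plasma cholesterol, from 798 to 364 CPM. Nceh1, a cholesteryl ester hydrolase, rose by 1.88 ± 0.26 (adjusted p = 6.24e-07). With 1 mg/kg on day 14 Abcg5 fell to 24.9 CPM from 84.2 (-1.76 ± 0.45, adjusted p = 0.0161), while Lcat was at 701 CPM against 755 (adjusted p = 0.584).

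Hepatocyte markers and markers of other liver cells moved as well. The shares of all genes that fell in each comparison are given above. Of 8 hepatocyte markers, 7 fell at 15 mg/kg on day 7, 6 on day 14 and 5 on day 28, and at 5 mg/kg 5, 5 and 4 fell. Their summed level ranged from 163732 to 267609 CPM in vehicle and from 77560 to 139584 at 15 mg/kg on day 7, from 124911 to 191233 and from 61316.5 to 130558 on day 14, and from 130003 to 209157 and from 99386 to 139939 on day 28. For 1 mg/kg none of the 8 passed on any day, and on day 14, where 12 sterol genes fell, their summed level ranged from 138206 to 213727 CPM. Of 11 Kupffer cell and macrophage markers, 2 fell at 15 mg/kg on day 7, 9 on day 14 and 4 on day 28, with a summed level of 617 to 1101 CPM in vehicle and 173 to 469 at 15 mg/kg on day 14. Of 10 stellate cell markers 3 fell at 1 mg/kg on day 14, where the summed level was 406 to 542 CPM against 533 to 742 in vehicle, and 3, 4 and 2 fell at 15 mg/kg on the 3 days. Among the remaining lists at 15 mg/kg, 2 of 7 endothelial markers fell on day 14, 1 of 3 tested cholangiocyte markers rose on day 7, 5 of 6 erythroid markers fell on day 7 and 1 of 3 tested lymphocyte markers fell on day 14. None of the markers found in these lists was at 0 in every library of a group. Their part in the falls of the sterol genes was not tested.

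Libraries also differed within groups along 1 shared axis. It held 75.69% of the variance around the group means in the genes it was drawn from. A library score, the mean of 500 genes of largest weight on that axis in SD units over the 60 libraries, leaves out the genes and lists described here. The mean score of 1 mg/kg was higher than vehicle by 1.06 on day 14 and by 1.04 on day 28, that of 15 mg/kg by 0.72 on day 14 and 0.67 on day 28, and that of 5 mg/kg was higher by 0.71 on day 28 and differed by -0.50 on day 7. The common coefficient of variation between livers in edgeR's fit was 0.388 without the score and 0.196 with it. With the score as a covariate the falling genes numbered 0, 11 and 12 of 26 at the 3 doses on day 7, 15, 16 and 16 on day 14 and 3, 6 and 6 on day 28. The share of all genes that fell with the score was 0.625%, 8.48% and 17% at the rising doses on day 7, 6.21%, 15.3% and 20.1% on day 14 and 3.45%, 12% and 17% on day 28, and so rose as well. At 1 mg/kg on day 28 the 3 genes were Acat2, Idi1 and Stard4, with Cyp51 no longer among them. With the score 2 genes rose at 15 mg/kg on day 28, Fdps by 0.98 and Hmgcs1 by 0.55 on the log2 scale, where 18.6% of all genes rose. Idi1 at 1 mg/kg on day 14 had a log2 fold change of -2.67 with the score against -3.37 without it.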

How the data were processed

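Poly(A) RNA from 60 flash-frozen livers was sequenced from stranded TruSeq libraries. Per the submitters' processing notes, the tools were bcl2fastq 2.20.0.422, Trimmomatic 0.33, STAR 2.5.2b and featureCounts of Subread 1.6.0, with build Rnor_6.0. The authors deposited raw read counts per gene. The strand setting and the handling of reads that map to several places are not given in the sources used here, so genes with processed copies, such as Fdps, are less certain. Counts came from 1 library per rat, and the depth of a library limits precision most for low genes such as Mvd and Acat2.

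Groups were taken from the treatment label. Genes were filtered with filterByExpr (count minimum 10, total minimum 15). TMM scaling and edgeR 4.0.16 (glmQLFit and glmQLFTest, R 4.3.3) were applied to all 60 libraries with 1 term per group and 48 residual degrees of freedom. P-values were adjusted by Benjamini-Hochberg over all genes of each comparison. Alternatives were DESeq2 1.42.0, its size factors, no filter, only the libraries compared, a library score as covariate, leaving out each library and, chosen after seeing the data, leaving out 3 libraries with a score below -1.5. The code was tested on simulated counts. Members were shown in full where they were called at 15 mg/kg on at least 2 days, with Srebf2 and Scap, and from each neighbouring list the 3 genes of smallest p at 15 mg/kg on day 7 were named. Members and lists were chosen with earlier results of these data known. Promoters came from RefSeq (GRCr8).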

Additional observations from a re-analysis of the deposited data

Results flagged for a closer look

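Each group was checked for a library far from the others in the summed level, the 9 genes shown in full, Srebf2 and Scap. Of these 144 checks 10 flagged one, where chance flags about 1 in 20 and 7.2 would be expected. The checks share libraries and are not independent. The summed level of the synthesis enzymes was 1166 CPM in 1 mg/kg library 4 of day 7, against 2311 to 2688 in the other 4. Sqle was at 6.95 CPM in that same library against 33.3 to 39.9, at 19.8 CPM in 5 mg/kg library 2 of day 7 against 7.27 to 10.4, and at 16.8 CPM in 1 mg/kg library 2 of day 14 against 4.45 to 6.88. Acat2 was at 5.07 CPM in 15 mg/kg library 3 of day 14 against 2.07 to 2.87, and at 9.20 CPM in vehicle library 2 of day 28 against 2.13 to 3.94. Idi1 was at 25.4 CPM in 1 mg/kg library 2 of day 28 against 7.11 to 11.6. Tm7sf2 was at 99.1 CPM in 1 mg/kg library 4 of day 14 against 22.6 to 41.2. Msmo1 was at 56.9 CPM in 15 mg/kg library 5 of day 7 against 26.8 to 34.4. Insig1 was at 77.7 CPM in 1 mg/kg library 5 of day 7 against 243 to 297.

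The 1 mg/kg effect on Idi1 differed between days 7 and 14 by -3.00 on the log2 scale in edgeR's test of the difference.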

How the results depend on the processing

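None of the called fold changes of the 9 genes shown in full changed sign under the alternatives run. Leaving out 1 library at a time took the count of falling genes to a low of 4 at 5 mg/kg on day 7, 6 at 1 mg/kg on day 14 (highest 11) and 1 at 1 mg/kg on day 28, and took the count of rising genes at 15 mg/kg on day 28 to a high of 1. It took the calls of the step from 1 to 5 mg/kg to a low of 1 on day 7 and to between 0 and 4 on day 14, and those of the 1 mg/kg change from day 7 to day 14 to between 0 and 3. How many of all genes were called without each library was not counted. With only the libraries compared, 5 genes fell at 5 mg/kg on day 7, 1 fell at 1 mg/kg on day 28, 1 rose at 15 mg/kg on day 28, both steps from 1 to 5 mg/kg held 1 call each on days 7 and 14, and the 1 mg/kg change held 0. That setting also ended the calls of Sqle and Insig1 at 5 mg/kg and Acat2 at 15 mg/kg on day 7, Stard4 at 1 mg/kg and Tm7sf2 at 5 mg/kg on day 14, and Acat2 at 1 mg/kg on day 28. With no filter, 1 gene fell at 1 mg/kg on day 28, the day 14 step held 1 call and the 1 mg/kg change 0. Over all genes 93 fell in the first, the step had 341 lower and 336 higher, and the change 1 and 5. With DESeq2's size factors the 1 mg/kg change held 0 calls, with 2 lower and 5 higher over all genes. With DESeq2 itself it held 5, with 50 lower and 60 higher over all genes. With the library score as covariate, 16 genes fell at 15 mg/kg on day 14, 2 rose at 15 mg/kg on day 28, the day 7 steps held 7 and 1 calls, the 1 mg/kg change 7, and the vehicle changes to day 28 from days 7 and 14 held 1 each. Without the libraries of low score, the steps from 1 to 5 mg/kg held 2 calls on day 7 and 0 on day 14. As a mean of log2(CPM + 0.5), which weights low enzymes like high ones, the summed change was -0.92, -0.86 and -0.78 at the rising doses on day 14 and -0.38 at 1 mg/kg on day 28. It changed sign in 3 groups whose sum stood above vehicle, from 0.05 to -0.13 at 1 mg/kg on day 7, from 0.04 to -0.24 at 5 mg/kg on day 28 and from 0.14 to -0.16 at 15 mg/kg on day 28, each by less than the spread between livers. The cause was not tested elsewhere. No paired analysis was possible because each rat gave 1 library and belonged to 1 dose and 1 day only.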

Other observations

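Within groups, the levels of these genes followed the library score in opposite directions. The correlation over 60 libraries, after group means were taken off, was -0.94 for Npc2, -0.94 for Ggps1, -0.81 for Pmvk and -0.74 for Insig2, against 0.90 for Scap, 0.87 for Srebf2, 0.82 for Hmgcs1 and 0.80 for Npc1. It was 0.09 for Msmo1 and -0.05 for Acat2. The points share libraries and depth, and these values are a description only. Srebf2 and Scap, which passed in no comparison, are among the genes that varied most closely with this axis.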
